A study of Homo sapiens with 11 samples.

Results

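The regions described here carried an H3K27ac peak in vehicle-treated Ishikawa cells and none in cells treated with estradiol. They were chosen by those calls: overlapping or touching peaks of the 4 H3K27ac lists were joined, and a joined region was kept when it held a vehicle peak and no estradiol peak. This gave 1246 regions, 7.06% of the 17655 regions with a vehicle peak, out of 27111 joined regions in all. They are called missing regions below, and the other 16409 regions with a vehicle peak, which also held an estradiol peak, are called retained regions. "Missing" refers to the peak calls at the authors' cutoff. The acetylation level under estradiol below that cutoff was not analysed here.

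Acetylation of histone H3 at lysine 27 marks active promoters and enhancers, and is laid down mainly by the coactivators p300 and CBP. The estrogen receptor (ER) and the glucocorticoid receptor (GR) are hormone-activated transcription factors of the nuclear receptor family. Each binds its own DNA element when it holds its ligand, recruits coactivators, and can also lower transcription of some genes. Estrogen drives proliferation of the endometrial epithelium, and glucocorticoids oppose several estrogen responses in the rodent uterus.

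Ishikawa is a human endometrial cancer cell line that expresses ER. Cells were kept in phenol red-free medium with charcoal-treated serum, which is low in steroids, and then received 10 nM 17-beta-estradiol, both hormones together (the combination), 100 nM dexamethasone, a synthetic GR ligand, or DMSO, the vehicle. Per the treatment labels, H3K27ac was profiled after 8 h, and ER and GR after 1 h; the general treatment text gives 1 h for all samples. Peak lists of 8 of the 11 samples were analysed: the 4 H3K27ac lists, ER with estradiol or the combination, and GR with dexamethasone or the combination. The line was not checked against marker genes, and gene names and sequences were not used here, because the annotation at hand is of another genome build.

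Each group is 1 library, so no spread between replicates and no p-value can be given. The intervals below are exact Clopper-Pearson 95% intervals over regions, which cover counting error only. Usable tags numbered 10852521 with estradiol, 9657258 with the combination, 9034395 with dexamethasone and 18508574 with vehicle, and peak calling reduced the vehicle library to 14002417. The lists hold 23888 estradiol, 20873 combination, 15192 dexamethasone and 21120 vehicle peaks. The estradiol list is therefore the longest, although its library was smaller than the scaled vehicle library. Peak calling used fragment lengths of 244 bp with vehicle, 232 bp with dexamethasone, 273 bp with estradiol and 280 bp with the combination. The shortest vehicle peaks spanned 244 bp, and the shortest retained region 273 bp. The parts of depth and of fragment length in the missing calls and in later comparisons of lists were not tested.

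The missing regions were weak and narrow in vehicle-treated cells. These values come from the list that chose them, and are given as a description. The highest vehicle −log10 q in a region had a median of 16.05 in missing regions and 34.0 in retained regions. Fold enrichments are relative to a control whose labels mention IgG as well as input, which leaves the kind of control uncertain. The authors' fold enrichment over that control had a median of 7.34 in missing and 10.3 in retained regions, and the pileup, the scaled number of fragments over the summit, a median of 29.5 in missing and 51.4 in retained regions. The median width of the joined region was 367 bp in missing and 940 bp in retained regions. The bases covered by vehicle peaks had a lower quartile of 270 bp in missing regions, below the 273 bp of the shortest retained region. Single peaks prevailed, with 1 vehicle peak in 1229 of the 1246 missing regions, and 1230 of them lay below the vehicle median. The share of vehicle regions that were missing was 22.1% in the weakest quartile of vehicle strength (964 of 4365), 5.96% in the second, 0.363% in the third and 0 of 4414 in the strongest, which allows up to 0.0835% (upper 95% bound). No vehicle region of the strongest quartile was therefore missing from the estradiol list.

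**Figure D1:**
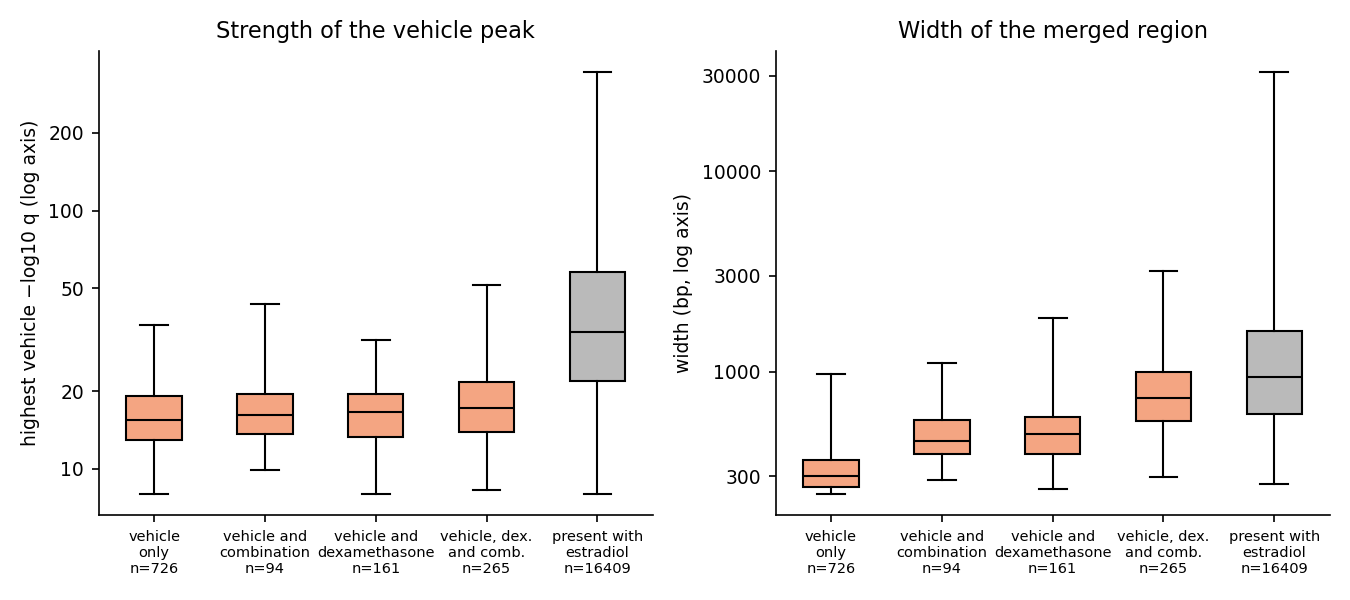
Highest vehicle −log10 q (left) and width in bp (right) of missing regions in 4 presence classes and of retained regions (grey), both on log axes. Boxes span the quartiles with the median as a line, and whiskers reach the lowest and highest region. The 4 classes have medians of −log10 q between 15.4 and 17.2, below the 34.0 of retained regions, and only the widths differ clearly between classes.

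The missing regions divided into 4 classes by their presence in the dexamethasone and combination lists. Peaks of these lists also took part in the joining, so the class shares depend on it. Without joining, 42.3% of missing vehicle peaks had a dexamethasone peak and 36.8% a combination peak. With joining, these shares were 34.2 and 28.8% of missing regions. A vehicle peak alone was found in 726 (58.3%, interval 55.5 to 61.0%). Another 265 (21.3%, 19.03 to 23.6%) were present in both the dexamethasone and the combination lists, so that estradiol alone lacked them. The vehicle and dexamethasone lists shared 161 (12.9%, 11.1 to 14.9%) that were absent from both estradiol-containing treatments. The remaining 94 (7.54%, 6.14 to 9.15%) were in the vehicle and combination lists only. Median vehicle −log10 q was 15.4 in the vehicle-only class, 16.1 with the combination, 16.6 with dexamethasone and 17.2 with both. Median width was 302 bp in the vehicle-only class, 450 bp with the combination, 490 bp with dexamethasone and 740 bp with both; joined width grows with the number of peaks joined.

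The strongest missing region of all lay at chr9:74871054-74871956 (hg19). Its fold enrichment was 5.60 with the combination, 9.77 with dexamethasone and 10.95 with vehicle, where the −log10 q was 51.7. The nearest estradiol peak lay 136 bp away. Fold enrichments of different lists are set side by side only, because libraries were scaled and sequenced to unequal depth. The strongest vehicle-only region, chr7:1577042-1577492, had a vehicle fold enrichment of 12.2 and a −log10 q of 35.9, and lay 160 bp from an estradiol peak. The next 4 of that class had a −log10 q between 31.0 and 31.4, so the strongest vehicle-only regions lay well below the strongest of all. In the vehicle and combination class, chr7:144465789-144466606 led with a fold enrichment of 5.25 with the combination and 11.9 with vehicle. Its nearest estradiol peak was 7373 bp away. In the vehicle and dexamethasone class, chr5:169987371-169988207 had a fold enrichment of 10.1 with dexamethasone and 7.50 with vehicle. The second of that class, chr8:78310769-78311560, had a fold enrichment of 18.02 with dexamethasone and 14.8 with vehicle, and its nearest estradiol peak was 84701 bp away. The 5 strongest regions had a vehicle −log10 q between 27.03 and 43.4 in the combination class, between 30.2 and 31.5 in the dexamethasone class and between 37.0 and 51.7 in the class with both. Of the 5 strongest regions in each class, 3 of the vehicle-only, 2 of the combination, 2 of the dexamethasone and 4 of the dexamethasone and combination class had an estradiol peak within 1 kb.

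Missing regions were far less often in the combination list than retained regions, and somewhat less often in the dexamethasone list. The 3 hormone lists are all set against 1 vehicle list, so their values are given side by side. The combination list held 359 missing regions (28.8%, interval 26.3 to 31.4%) against 80.5% of retained regions (79.9 to 81.1%), with 76.9% of all vehicle regions as background. The dexamethasone list held 426 missing regions (34.2%, 31.6 to 36.9%) against 46.7% of retained regions (45.9 to 47.5%), with 45.8% of all vehicle regions as background. Both shares were lower in missing regions, but retained regions were also much stronger with vehicle.

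Among vehicle regions of like strength, the order for dexamethasone turned round. In the weakest quartile, 31.6% of the 964 missing regions had a dexamethasone peak (28.7 to 34.7%), against 23.4% of the 3401 retained regions (22.0 to 24.9%). In the same quartile 26.0% of missing regions had a combination peak (23.3 to 28.9%), against 53.0% of retained regions (51.3 to 54.7%). Weak vehicle regions missing with estradiol were thus more often kept with dexamethasone and less often kept with the combination, and none of these intervals overlapped. The missing regions of the quartile were slightly the weaker, with a median −log10 q of 14.8 in missing and 16.2 in retained regions. Both shares rose from this quartile to the second, so strength was not fully matched within it. The weaker set had the higher dexamethasone share but the lower combination share, and the part of the remaining strength gap was not tested. In the second quartile the dexamethasone share was 40.2% of 266 missing regions (34.3 to 46.4%) and 29.5% of 4196 retained regions (28.2 to 30.9%). The combination share there was 35.0% of missing (29.2 to 41.0%) and 70.9% of retained regions (69.5 to 72.3%). With single, unjoined vehicle peaks in the weakest quartile, a setting chosen after seeing the data, the dexamethasone share was 39.8% of missing and 29.4% of retained peaks, and the combination share 34.2% of missing and 58.4% of retained peaks.

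Finer classes of vehicle −log10 q, also chosen after seeing the data, gave the same directions. The dexamethasone share was 29.7% of missing and 20% of retained regions under 12, 30.2% of missing and 24.96% of retained regions from 12 to 16, 33.9% of missing and 23.2% of retained regions from 16 to 20, and 35.4% of missing and 26.5% of retained regions from 20 to 25. From 25 upwards it was 58.6% of missing regions (48.2 to 68.4%) and 57.2% of retained regions (56.3 to 58.2%), which cannot be told apart. The intervals also overlapped under 12 and from 12 to 16. For the combination, the share was 23.8% of missing and 44.9% of retained regions under 12, and 47.5% of missing and 91.7% of retained regions from 25 upwards. The combination intervals did not overlap in any of the 5 classes.

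**Figure D2:**
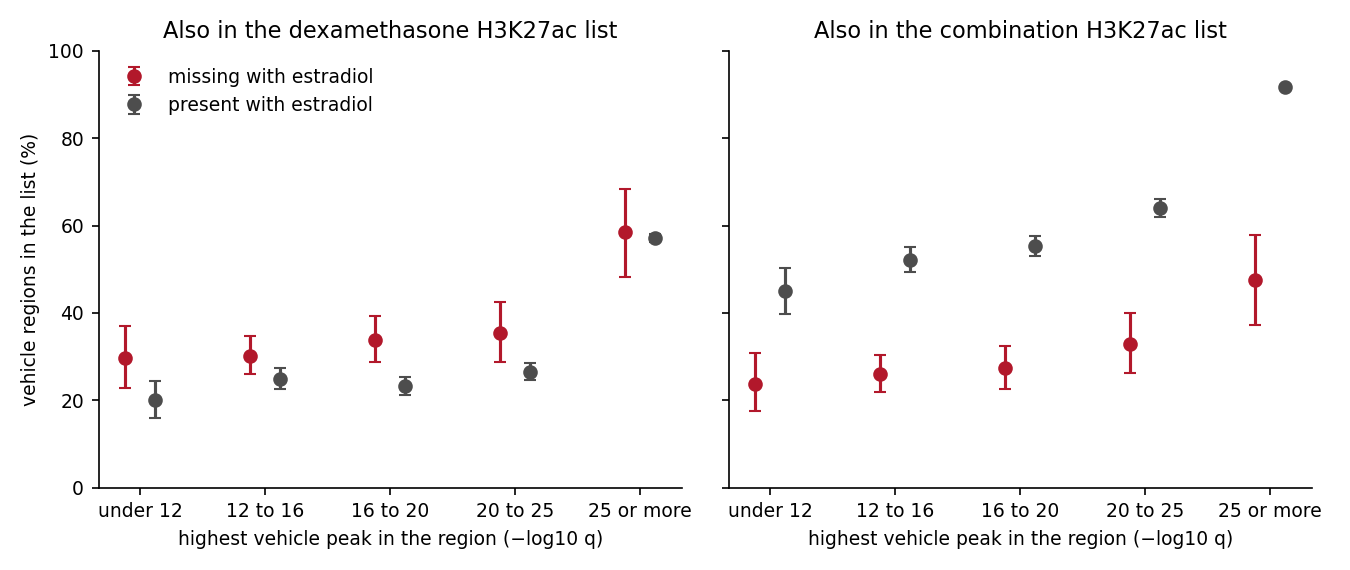
Share of vehicle regions (%) that were also in the dexamethasone list (left) or the combination list (right), by the highest vehicle −log10 q in the region, for missing regions (red) and retained regions (grey), with exact 95% intervals over regions. Red points lie above grey ones on the left, by only 58.6% of missing against 57.2% of retained regions in the strongest class, and below them in all 5 classes on the right.

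Combination peaks were less frequent at missing than at retained regions both with and without a dexamethasone peak. Of the 426 missing regions with a dexamethasone peak, 62.2% (57.4 to 66.8%) also had a combination peak, against 98.1% of the retained regions with a dexamethasone peak (97.8 to 98.4%). Of the 820 missing regions without a dexamethasone peak, 11.5% had a combination peak (9.36 to 13.8%), against 65.2% of such retained regions (64.1 to 66.2%). Retained regions in this comparison were stronger with vehicle, with a median −log10 q of 16.9 in missing and 51.4 in retained regions among those with a dexamethasone peak, and 15.6 in missing and 26.4 in retained regions among those without. In the weakest quartile of vehicle strength, 178 of the 305 missing regions with a dexamethasone peak also had a combination peak. The same held for 725 of the 797 such retained regions. The part of strength in the whole difference was not tested.

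Where missing regions had a peak with another treatment, that peak ranked low with the combination and in the lower 3 quartiles with dexamethasone. Of their 359 combination peaks, 48.5% fell in the weakest quartile of the combination list, 35.9% in the second, 14.8% in the third and 0.836% (3 peaks) in the strongest. The combination peaks of retained regions fell 14.7, 21.8, 29.1 and 34.4% in those quartiles. Of the 426 dexamethasone peaks at missing regions, 26.8% fell in the weakest quartile, 35.2% in the second, 30.05% in the third and 7.98% in the strongest. Those of retained regions fell 14.9, 20.4, 26.7 and 37.9%. Median fold enrichment of the dexamethasone peaks was 10.2 at missing and 11.3 at retained regions, and of the combination peaks 8.80 at missing and 11.04 at retained regions. These ranks were not matched for vehicle strength, which was lower in missing regions.

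**Figure D3:**
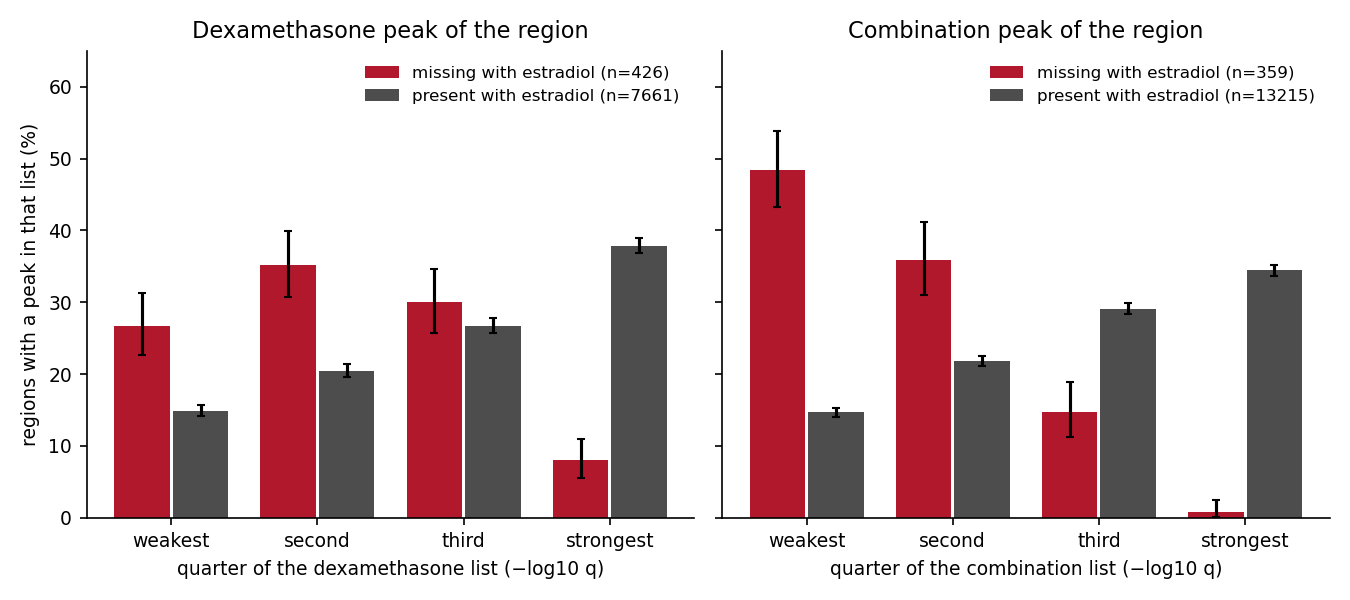
Share (%) of missing regions (red) and retained regions (grey) with a peak in the dexamethasone list (left) or the combination list (right), by the quartile of that list in which their strongest peak falls, with exact 95% intervals. Missing regions crowd into the weakest combination quartile (48.5%) and hold 3 peaks in the strongest, while their dexamethasone peaks spread over the lower 3 quartiles. Regions were not matched for vehicle strength.

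Few missing regions had a receptor site close by. Any ER or GR site lay within 1 kb of 84 of the 1246 (6.74%, 5.41 to 8.28%), against 11.6% of retained regions (11.1 to 12.1%). ER alone was near 30, GR alone near 47 and both near 7, and 1162 had none. Among regions with a site, GR was present at 64.3% of missing regions (53.1 to 74.5%) and 49.9% of retained regions (47.7 to 52.2%). ER was present at 44.0% of such missing regions (33.2 to 55.3%) and 77.4% of such retained regions (75.5 to 79.3%). Among regions with a receptor site, missing ones thus held ER less often and GR more often than retained ones. Over all regions, a GR site of either list lay near 54 of 1246 missing (4.33%) and 947 of 16409 retained regions. GR sites were therefore not more frequent at missing regions as a whole. These shares were not matched for strength or width.

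ER sites were fewer at missing than at retained regions under both treatments. Sites of the estradiol ER list were found within 1 kb of 36 missing regions (2.89%, 2.03 to 3.98%) and of 8.71% of retained regions (8.28 to 9.15%), with 8.30% of all vehicle regions as background. A combination ER site lay near 18 missing regions (1.44%, 0.858 to 2.27%) and 5.95% of retained regions (5.60 to 6.33%), with 5.64% as background. Within the weakest quartile of vehicle strength the estradiol ER share was 2.70% of missing (1.77 to 3.93%) and 6.20% of retained regions (5.42 to 7.07%), and these intervals did not overlap. Among regions of like vehicle peak width (the bases that vehicle peaks cover in the region), the estradiol ER intervals within 1 kb overlapped in each of the lower 3 quartiles. Distances were counted from the ends of the joined region, whose whole width was not matched. In the second quartile of width the share was 4.10% of missing (2.13 to 7.05%) and 3.95% of retained regions (3.38 to 4.59%), which cannot be told apart, and in the narrowest 2.54% of missing (1.60 to 3.82%) and 4.15% of retained regions (3.51 to 4.86%), where the intervals also overlap. In the third it was 2.5% of missing (2 of 80, 0.304 to 8.74%) and 5.93% of retained regions (5.25 to 6.67%). The estradiol ER sites themselves were often weak. Of 36 distinct estradiol ER sites near missing regions, 17 fell in the weakest quartile of the ER list and 2 in the strongest, against 26.5 and 26.0% of the sites near retained regions. The 20 distinct combination ER sites near missing regions fell 6, 8, 5 and 1 in the quartiles of their list from weakest to strongest.

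The GR comparison depended on the distance counted and on the width of the vehicle peaks. Within 1 kb, combination GR sites were fewer at missing than at retained regions, and dexamethasone GR sites could not be told apart. Sites of the dexamethasone GR list were found within 1 kb of 46 missing regions (3.69%, 2.72 to 4.89%) and of 4.53% of retained regions (4.21 to 4.86%), with 4.47% of all vehicle regions as background. A combination GR site lay near 29 missing regions (2.33%, 1.56 to 3.33%) and 3.69% of retained regions (3.41 to 3.99%), with 3.60% as background. Inside the region itself, dexamethasone GR sites were found at 1.20% of missing (0.675 to 1.98%) and 3.83% of retained regions (3.54 to 4.13%). Within 10 kb the order turned round, at 10.75% of missing (9.09 to 12.6%) and 8.31% of retained regions (7.89 to 8.75%), and neither pair of intervals overlapped. Combination GR sites within 10 kb lay near 7.46% of missing (6.07 to 9.07%) and 7.07% of retained regions (6.68 to 7.47%), which cannot be told apart. Over all regions, both ER lists stayed lower at missing regions at all 3 distances. Among regions of like vehicle peak width, this did not hold within 10 kb. There the estradiol ER share was 10.4% of missing and 9.71% of retained regions in the narrowest quartile. In the second it was 12.97% of missing and 9.28% of retained regions, and in the third 7.5 and 11.1%. The intervals overlapped in each of these 3 width quartiles. In the weakest quartile of vehicle strength the dexamethasone GR share was 3.32% of missing (2.28 to 4.65%) and 2.73% of retained regions (2.21 to 3.34%), and the combination GR share 2.28% of missing (1.44 to 3.43%) and 2.35% of retained regions (1.87 to 2.92%), neither of which can be told apart. By width of the vehicle peaks, the dexamethasone GR share was 3.23% of missing (2.16 to 4.63%) and 1.79% of retained regions (1.38 to 2.28%) in the narrowest quartile, with intervals that overlap. It was 5.46% of missing (3.15 to 8.72%) and 2.04% of retained regions (1.63 to 2.51%) in the second, where they do not overlap, and 2.5% of missing (2 of 80, 0.304 to 8.74%) and 2.44% of retained regions (1.998 to 2.94%) in the third. Inside the region, the intervals overlapped in each of these 3 width quartiles. The inside share was 0.577% of missing and 0.880% of retained regions in the narrowest. In the second it was 3.07% of missing and 1.19% of retained regions, and in the third 1.25 and 1.75%. Within 10 kb, the narrowest quartile had 9.23% of missing (7.38 to 11.4%) and 4.63% of retained regions (3.96 to 5.38%). The 45 distinct dexamethasone GR sites near missing regions were spread over the strength of their list, with 11, 15, 8 and 11 in the quartiles from weakest to strongest. They were not crowded into the weakest quartile.

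**Figure D4:**
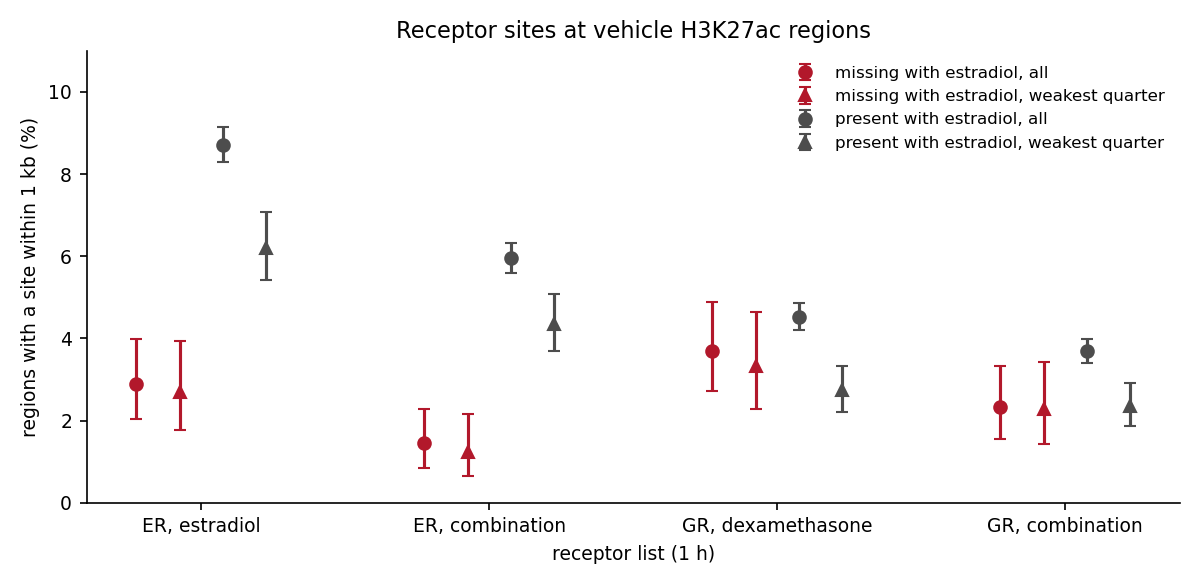
Share of vehicle H3K27ac regions (%) with a receptor site within 1 kb, for each of the 4 receptor lists, in missing regions (red) and retained regions (grey), all regions (circles) or the weakest quartile of vehicle strength (triangles), with exact 95% intervals. Both ER lists show red points below grey ones, such as 2.70 against 6.20% in the weakest quartile with estradiol, whereas the red and grey triangles overlap for GR.

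The receptor sites lay mostly at missing regions that kept acetylation with other treatments. A dexamethasone GR site was near 21 of the 265 regions with dexamethasone and combination peaks (7.92%, 4.97 to 11.9%), 6 of the 161 with a dexamethasone peak (3.73%, 1.38 to 7.93%), 5 of the 94 with a combination peak (5.32%, 1.75 to 11.98%) and 14 of the 726 vehicle-only regions (1.93%, 1.06 to 3.21%). An estradiol ER site was near 17 of those 265 (6.42%, 3.78 to 10.1%), 5 of the 161, 5 of the 94 and 9 of the 726 (1.24%, 0.568 to 2.34%). The vehicle-only class had the lowest share with either receptor, with intervals clear of those of the class with both peaks but not of the other classes. The classes also differ in width, as given above.

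GR was also found beside missing regions that lacked a dexamethasone H3K27ac peak. Of the 820 such regions, 19 had a dexamethasone GR site within 1 kb (2.32%, 1.40 to 3.60%), against 53 of 8748 retained regions without a dexamethasone peak (0.606%, 0.454 to 0.792%). With no dexamethasone H3K27ac peak within 1 kb either, the shares were 2.03% of 592 missing regions (1.05 to 3.51%) and 0.531% of 7717 retained regions (0.382 to 0.720%). Within the weakest quartile of vehicle strength they were 2.58% of missing (1.51 to 4.10%) and 1.27% of retained regions (0.874 to 1.78%), with intervals that overlap. Sites overlapping the region itself were found at 6 of the 820 missing regions (0.732%, 0.269 to 1.59%) and 0.332% of the retained ones (0.222 to 0.476%), which also overlap. For combination GR sites the shares were 0.732% of missing and 0.617% of retained regions, which cannot be told apart.

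The strongest missing regions with receptor sites varied in which receptors and treatments marked them. The region at chr1:169497932-169498622 had a fold enrichment of 11.8 with the combination, 8.83 with dexamethasone and 11.6 with vehicle. An estradiol ER site lay 114 bp away (fold enrichment 9.94) and a combination GR site 55 bp away (fold enrichment 15.2). The region at chr3:32009179-32010354 had sites in all 4 receptor lists within 1 kb. Its H3K27ac fold enrichment was 21.1 with the combination, 30.7 with dexamethasone and 10.3 with vehicle, and its nearest estradiol H3K27ac peak was 12093 bp away. The GR site there had a fold enrichment of 11.98 with dexamethasone, and the nearer ER site 15.8 with estradiol. The H3K27ac −log10 q there was 99.2 in the dexamethasone list and 26.2 in the vehicle list. At chr2:205356520-205357020 a dexamethasone GR site (fold enrichment 11.3) overlapped a vehicle-only region with a vehicle fold enrichment of 11.2. No H3K27ac peak was called there with any hormone. At chr5:127625764-127626163 GR sites of both lists lay within 169 bp, and H3K27ac fold enrichment was 9.92 with the combination, 11.6 with dexamethasone and 10.7 with vehicle. At chr4:82527926-82528952 GR sites of both lists lay within 277 bp, and H3K27ac fold enrichment was 11.7 with the combination, 11.4 with dexamethasone and 10.8 with vehicle. A dexamethasone GR site (fold enrichment 12.1) overlapped chr2:99391315-99391810, a region with a fold enrichment of 8.17 with the combination and 8.11 with vehicle. Of the 3 other strong regions with an ER site, all of them from the estradiol ER list alone, chr9:95965044-95965313 and chr10:120522603-120523166 were vehicle-only. At chr10:90711776-90712300 the H3K27ac fold enrichment was 5.36 with the combination, 9.66 with dexamethasone and 6.52 with vehicle.

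Many missing regions lay beside acetylation that estradiol kept. The nearest estradiol peak was a median of 2177 bp away, with 538 missing regions (43.2%) within 1 kb of one and 824 (66.1%) within 10 kb. For 457 of those 538 (84.9%), the neighbouring estradiol peak belonged to a joined region that also held a vehicle peak. Measured between joined regions, 44.6% of missing regions (41.8 to 47.4%) and 48.1% of retained regions (47.4 to 48.9%) had another region with an estradiol peak within 1 kb, and 50.1% of the weakest quartile of retained regions (48.4 to 51.8%). Closeness to estradiol peaks was therefore not higher at missing regions. The 422 missing regions over 10 kb from any estradiol peak had a dexamethasone peak in 32.0% (27.6 to 36.7%) and a combination peak in 28.7% (24.4 to 33.2%), near the 31.6 and 27.1% of those within 1 kb.

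The rule has sharp edges. The missing regions nearest to an estradiol peak were chr7:146236492-146237092 at 2 bp, chr5:150954621-150954896 at 9 bp and chr1:156662866-156663243 at 11 bp, with vehicle fold enrichments of 10.5, 5.73 and 9.63. Just outside, chr1:8085621-8086172, chr1:218662571-218663262 and chr11:129893268-129893807 overlapped an estradiol peak by 4, 6 and 8 bp, with vehicle fold enrichments of 6.47, 7.71 and 4.26. In all, 61 missing regions lay under 100 bp from an estradiol peak and 25 retained regions overlapped one by under 100 bp, and 21 retained regions were joined to one only through other peaks or by touching. The lowest −log10 p was 10.2 for a vehicle peak in a missing region and 10.4 for an estradiol peak in a retained one, both next to the authors' cutoff of 10.

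Missing regions were unevenly spread over the 23 chromosomes. They were 11.5% of the 375 vehicle regions on chromosome 18 (interval 8.42 to 15.1%), 9.58% of the 835 on chromosome 4 (7.67 to 11.8%), 9.27% on chromosome 7 (7.38 to 11.4%) and 9.20% on the X chromosome (6.59 to 12.4%). The lowest shares were 3.96% on chromosome 20 (2.33 to 6.27%), 4.04% on chromosome 17 (2.90 to 5.47%), 4.11% on chromosome 16 (2.75 to 5.88%) and 4.44% on chromosome 19 (3.29 to 5.84%). Chromosomes 16, 17 and 19 are gene-dense and chromosomes 4 and 18 gene-poor. Among vehicle regions below the vehicle median, the share was 22.8% on chromosome 18 (17.0 to 29.6%), 19.2% on chromosome 4 (15.5 to 23.4%), 8.60% on chromosome 17 (6.22 to 11.5%), 8.12% on chromosome 16 (5.46 to 11.5%), 8.02% on chromosome 20 (4.74 to 12.5%) and 9.50% on chromosome 19 (7.09 to 12.4%). Chromosomes 18 and 4 were again the highest and these 4 again the lowest. These chromosomes were singled out after their values were seen.

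The share of missing regions that had a dexamethasone peak also varied between chromosomes, as it did among all vehicle regions. On chromosome 4, 48 of 80 missing regions had a dexamethasone peak (60.0%, 48.4 to 70.8%), and on chromosome 18, 22 of 43 (51.2%, 35.5 to 66.7%). On chromosome 19 it was 5 of 48 (10.4%, 3.47 to 22.7%) and on chromosome 16, 3 of 28 (10.7%, 2.27 to 28.2%). A high share of missing regions did not always go with a high dexamethasone share: on the X chromosome 12 of 38 had a dexamethasone peak (31.6%), on chromosome 14, 20 of 64 (31.2%), and on chromosome 21, 2 of 17 (11.8%), all below the 34.2% over all missing regions. Absent from the dexamethasone list were 43.1% of all vehicle regions on chromosome 4 and 44.8% on chromosome 18. On chromosomes 19 and 16 the absent share of all vehicle regions was 65.7 and 68.5%. It was 57.9% on the X chromosome, 50.3% on chromosome 14 and 56% on chromosome 21. A higher dexamethasone share on chromosomes 4 and 18 than on 16 and 19 was thus also seen over all vehicle regions, and is not particular to missing ones. Absence with dexamethasone was thus higher on chromosomes 16 and 19, where absence with estradiol was lower; both are counted against the same vehicle list. Base composition and the share of duplicate tags, which was 19% in the estradiol, 33% in the dexamethasone and 18% in the vehicle H3K27ac library, were not tested against this order.

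**Figure D5:**
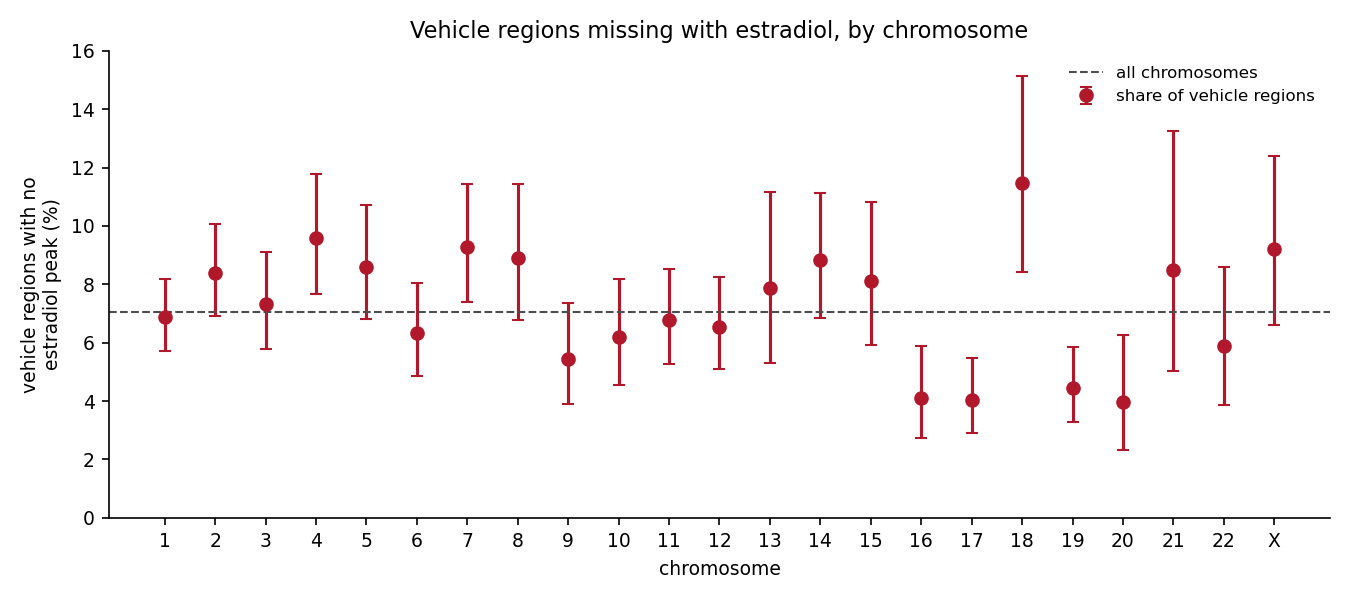
Share of the vehicle H3K27ac regions of each chromosome (%) that had no estradiol peak, with exact 95% intervals over regions, and the share over all chromosomes (dashed line, 7.06%). Chromosome 18 (11.5%) and chromosome 4 (9.58%) lie above the line, and chromosomes 16, 17, 19 and 20, between 3.96 and 4.44%, below it.

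Missing regions also occurred in groups. Another missing region lay within 50 kb of 411 of the 1246 (33.0%, 30.4 to 35.7%), whereas a missing region lay within 50 kb of 14.8% of retained regions (14.3 to 15.4%). This comparison was not matched for vehicle strength, and grouping of weak regions in general was not tested. The intervals over regions treat neighbouring regions as independent. Chained at 50 kb, 835 stood alone, 126 runs held 2, and 43 runs held 3 or more. The longest run, chr18:56197297-56307589, held 11 missing regions among 20 vehicle regions in 110 kb. Of the 11, 6 had a dexamethasone peak and 2 a combination peak, and none had a receptor site within 1 kb. Their vehicle fold enrichment was between 4.18 and 10.3 with a median of 7.02, against 6.72 to 40.8 with a median of 13.2 in the 9 retained regions between them. Of those 9, 8 had a dexamethasone and 7 a combination peak. The missing regions there lay among the lower peaks of the stretch, in a range that overlaps that of the retained ones. Next in size was chr5:169964440-169990030, with 6 missing regions among 8 vehicle regions in 25.6 kb, 3 of them with a dexamethasone and 1 with a combination peak. This run holds the strongest region of the vehicle and dexamethasone class. These runs were singled out after their values were seen.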

How the data were processed

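ChIP-seq peak lists of 8 libraries were used, 1 per group. The submitters' processing notes name Bowtie 1.1.2, MACS2 2.1.0.20140616 and the hg19 genome. Peaks passed a p cutoff of 1e-10 per the file headers, duplicate tags were removed, and the larger of ChIP and control was scaled towards the smaller. Pileup was deposited as a signal (scaled coverage by fragments over the summit). The authors gave peak significance as −log10 of p-values and q-values. Their deposited fold enrichment is a ratio of pileup to local control. These are the authors' values, used to describe and rank peaks within a list.

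Positions are 1-based hg19 coordinates. Peaks of the 4 H3K27ac lists that overlapped or touched were joined, which was tested on simulated intervals. A receptor site counted within 1 kb of the joined region, which can be wider than its vehicle peaks. Median joined width was 940 bp in retained regions, where vehicle peaks covered a median of 652 bp. In missing regions these medians were 367 and 317 bp. Matching by vehicle peak width thus left joined width unmatched. Strength quartiles were cut on the highest vehicle −log10 q of all vehicle regions, at 20.2, 31.9 and 55.0, and width quartiles on the bases covered by vehicle peaks in the region. Regions were named by a rule: the 5 strongest of each presence class, the 5 strongest near ER and near GR, and 3 on each side of the rule's edge; runs and chromosomes were named after seeing values. The members, lists and rules were chosen with earlier results of these data known. Alternatives changed joining, cutoff, list length and distances. Python 3.11.15, pandas 2.3.3 and SciPy 1.17.1 were used. The tissue of origin, gene context and sequence were not analysed here, since no hg19 annotation or genome was used.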

Additional observations from a re-analysis of the deposited data

How the results depend on the processing

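Of 49 alternatives, 22 left a value within its interval (or within 1.5 times, for counts), 27 moved it, and the cause was not tested. Joining peaks within 1 kb gave 610 missing regions, 40.2% of them with dexamethasone, 34.8% with the combination and 51.6% with vehicle only. Single vehicle peaks gave 1463 missing peaks out of 21120, with 42.3, 36.8 and 49.7% in those classes. A vehicle −log10 p of at least 20 gave 468 regions, with 40.4, 34.6 and 51.7%. The dexamethasone GR share was then 4.92% of missing (3.14 to 7.28%) and 4.81% of retained regions (4.47 to 5.18%). These cannot be told apart, as was also the case without that cutoff. Lists cut to equal length gave 1510 missing regions out of 13235 with a vehicle peak, against 1246 out of 17655 with the full lists. The missing share of vehicle regions thus rose with equal lengths. The 3 classes then held 39.6, 33.9 and 53.05%, with estradiol ER at 4.24% and combination ER at 2.45%. Requiring no estradiol peak within 5 kb left 507 regions. With receptor sites inside the region, the shares were 0.722% (estradiol ER), 0.562% (combination ER), 1.20% (dexamethasone GR) and 0.642% (combination GR), against 7.15, 5.05, 3.83 and 3.18% of retained regions. Within 10 kb they were 10.75, 6.98, 10.75 and 7.46%, against 14.8, 10.4, 8.31 and 7.07% of retained regions. The order of missing and retained thus turned round for dexamethasone GR, while combination GR could not be told apart. None of these shares was matched for width. Within 10 kb, 20.1% had another missing region. Under joining, single peaks, the stricter cutoff and equal lengths, missing regions stayed below retained ones for the combination list and both ER lists.

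The alternatives on gene context and on sequence were not run, since no hg19 annotation or genome was used. No paired analysis was possible because each group holds 1 library. Small receptor counts, such as 18 missing regions near a combination ER site, give wide intervals. The parts of depth and of fragment length were not tested.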

Other observations

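Missing regions at an intermediate distance from estradiol acetylation had the highest share with a dexamethasone peak, in distance classes chosen after seeing the data. Of the 286 missing regions 1 to 10 kb from an estradiol peak, 42.3% had a dexamethasone peak (36.5 to 48.3%), against 31.6% of the 538 within 1 kb (27.7 to 35.7%) and 32.0% of the 422 farther away (27.6 to 36.7%). The first interval overlaps the last but not the second. Median joined width also differed, at 421 bp from 1 to 10 kb, 344 bp within 1 kb and 366.5 bp farther away. These shares were not matched for width, and retained regions were not set beside them.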
